A study of Mus musculus with 4 samples.

Results

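STAT transcription factors carry cytokine and interferon signals from receptors at the cell surface to the nucleus, and 6 genes of this mouse family, Stat2, Stat3, Stat4, Stat5a, Stat5b and Stat6, are described here in activated B cells. They were found by their symbols in a table of 55401 genes, and each symbol matched 1 row. Poly(A) RNA was sequenced from C57BL/6 splenic B cells, purified with anti-CD43 microbeads and kept in culture for 36 h, where anti-IgM at 10 µg/ml and anti-CD40 at 1 µg/ml served as stimuli. Each genotype had 2 libraries: wild type, and Adar1 cKO, where the label says that B cells lack Adar1, the enzyme that edits adenosine to inosine in double-stranded RNA. The cells of both genotypes had the same strain, tissue and culture. The promoter that drives the Cre, the deleted part of Adar1, the age of the mice and whether the libraries are from different mice or cultures were not stated by the labels, so p-values measure the spread between these libraries, which may be technical.

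In this pathway a cytokine brings receptor chains together, the receptor-bound Janus kinases (JAKs) phosphorylate a tyrosine of the STAT protein, and STAT dimers then enter the nucleus and bind DNA. STAT2 acts with IRF9 in the complex that type I and type III interferons activate, and which binds the interferon-stimulated response element (ISRE). STAT3 answers IL-6, IL-10 and IL-21, STAT4 answers IL-12 and IL-23, STAT5A and STAT5B answer IL-2, IL-7 and other cytokines, and STAT6 answers IL-4 and IL-13. In B cells these signals guide class switching, survival and plasma cell formation. SOCS proteins, PIAS proteins and phosphatases restrain the pathway.

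Total counts per library lay between 17327480 and 19669651. Adar, the gene the label names as deleted, stood at 137.3 and 150 CPM (counts relative to library size, scaled by edgeR's TMM method) in wild type, and at 217.8 and 232.5 CPM in the other libraries. The counts of this whole gene were thus higher where the label names a deletion. Which part is deleted was not stated, so whole-gene counts cannot check the label. The libraries are called cKO-labelled throughout, with every direction drawn from that label. Markers of B cells were abundant in all libraries, with a summed level of 4500 and 4470 CPM in wild type, against 3450 and 3550 CPM. Of those 7 markers, 5 were called lower and 1 higher in the test described below. That test called 9.54% of all tested genes lower and 12.2% higher. In bulk RNA fewer cells of a type and less RNA per cell cannot be told apart.

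The promoters of Stat2 and Stat4 are shown first, because these were the members that rose and because both hold the core of an ISRE. RefSeq promoters on GRCm38.p6, 250 bases before to 50 after a transcription start, were at hand for 6 of 6 members. The core was searched on both strands as GAAA, any 2 bases and GAAA again, and its matches stand in capitals. Stat2 has 1 listed promoter (chr10:128270248-128270547, plus strand), and Stat4 has a pair, of which the downstream promoter inside the gene (chr1:52007990-52008289, plus strand) holds the match.
Stat2 promoter: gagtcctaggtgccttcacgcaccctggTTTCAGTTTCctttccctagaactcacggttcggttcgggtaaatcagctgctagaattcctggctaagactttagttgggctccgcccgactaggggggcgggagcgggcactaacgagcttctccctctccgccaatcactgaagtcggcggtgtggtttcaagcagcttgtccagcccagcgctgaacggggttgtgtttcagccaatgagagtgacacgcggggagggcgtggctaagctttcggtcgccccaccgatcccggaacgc
Stat4 downstream promoter: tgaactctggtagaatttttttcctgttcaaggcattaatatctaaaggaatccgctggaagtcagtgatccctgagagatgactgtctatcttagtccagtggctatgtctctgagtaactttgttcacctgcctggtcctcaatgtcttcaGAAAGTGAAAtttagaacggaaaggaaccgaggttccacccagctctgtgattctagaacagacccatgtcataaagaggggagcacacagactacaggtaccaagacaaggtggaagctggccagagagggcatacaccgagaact

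In Stat2 the core lay on the strand opposite to the gene and ended 213 bases before the start. In Stat4 it lay on the strand of the gene and ended 88 bases before the downstream start. The listed promoters of Stat3, Stat5a, Stat5b and Stat6 held no match in these windows. Of 32807 promoters of this length, 3.43% held the core. A pair of other elements was searched in the same windows. The palindrome TTCNNNGAA (N is any base) is a site that STAT dimers bind and is called GAS. It was found in no member's window, in 8.29% of all promoters and in 9.55% of genes. The same palindrome with 4 free bases between TTC and GAA has the spacing that STAT6 prefers. Among the members it was found once, in Stat2, as TTCCCTAGAA next to the ISRE core and without overlap. It was found in 6.94% of all promoters and in 8.0% of genes. A match is a run of letters, and binding was not measured.

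The same core can be set beside those of genes that the STAT2 and IRF9 complex is known to activate, with every match in their listed promoters shown. Each window below has 30 bases, is read on the strand on which the core begins with GAAA, and has the core in capitals. The number after a name is the position of the core's most upstream base relative to the transcription start, and some windows of a gene overlap. The windows of the members are Stat2 (chr10:128270266-128270295, minus) and Stat4 (chr1:52008133-52008162, plus). Those of the targets are Isg15 (chr4:156200877-156200906, chr4:156200871-156200900 and chr4:156200865-156200894, minus), Oas1a (chr5:120907526-120907555 and chr5:120907520-120907549, minus), Ifit1 (chr19:34640775-34640804 and chr19:34640794-34640823, minus), Ifit3 (chr19:34583363-34583392 and chr19:34583397-34583426, minus), Rsad2 (chr12:26456553-26456582, plus), Bst2 (chr8:71537583-71537612 and chr8:71537577-71537606, minus) and Ifitm3 (chr7:141010723-141010752 and chr7:141010706-141010735, minus).
Stat2 -222: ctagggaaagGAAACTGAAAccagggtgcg
Stat4 -97: aatgtcttcaGAAAGTGAAAtttagaacgg
Isg15 -78: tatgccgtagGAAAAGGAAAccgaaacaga
Isg15 -72: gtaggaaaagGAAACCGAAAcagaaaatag
Isg15 -66: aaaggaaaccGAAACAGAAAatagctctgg
Oas1a -20: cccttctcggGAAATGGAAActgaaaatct
Oas1a -14: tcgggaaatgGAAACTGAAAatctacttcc
Ifit1 -104: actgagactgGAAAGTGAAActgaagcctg
Ifit1 -85: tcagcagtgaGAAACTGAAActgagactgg
Ifit3 -156: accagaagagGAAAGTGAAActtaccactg
Ifit3 -122: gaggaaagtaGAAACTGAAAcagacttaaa
Rsad2 -120: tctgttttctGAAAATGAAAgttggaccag
Bst2 -130: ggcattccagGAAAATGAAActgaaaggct
Bst2 -124: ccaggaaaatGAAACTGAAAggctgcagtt
Ifitm3 2: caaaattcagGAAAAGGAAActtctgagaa
Ifitm3 19: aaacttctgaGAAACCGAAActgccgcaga
The core of Stat2, GAAACTGAAA, also stands once in each of Oas1a, Ifit1, Ifit3 and Bst2. The core of Stat4, GAAAGTGAAA, also stands once in each of Ifit1 and Ifit3. The matches in Isg15, Rsad2 and Ifitm3 have other letters in the free positions. Of the 12 listed targets of STAT2 with IRF9, 10 had a RefSeq promoter at hand and 7 of these held the core. The targets without a promoter at hand were Mx1 and Usp18. Irf7, Oasl1 and Irf9 had a promoter without the core, though called higher, and so had Jak2 and Nmi from the other lists described below. In those lists the core was held by Socs1, called higher, Vegfa, called lower, and Il4 and Ifna4, too low to be tested. Among all tested genes with a promoter, 3.89% held the core, against 10.3% of those called higher and 2.19% of those called lower in the cKO-labelled libraries.

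Levels of different genes were set side by side in FPKM, the deposited value that is scaled to exonic length and to the library's total. In wild type Stat6 was the most abundant of the 6 genes, at 62.4 ± 2.07 FPKM (SD, n = 2 libraries, as for every mean below). Stat3 followed at 34.3 ± 0.212 FPKM. Stat5a and Stat5b came next at 19.9 ± 1.87 and 19.05 ± 0.184 FPKM, with overlapping libraries. Stat4 at 15.1 ± 0.672 and Stat2 at 12.7 ± 0.0212 FPKM were lowest. All other neighbours in this order were further apart than their spread. Among the 14180 tested genes, Stat6 lay at percentile 94.0 and 94.4 of the FPKM levels in the wild-type libraries and Stat2 at 69.2 and 69.0.

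In the cKO-labelled libraries the order changed below Stat3. Stat6 stood at 59.3 ± 2.61 and Stat3 at 33.3 ± 0.184 FPKM. Stat2, the lowest of the 6 in wild type, came next to Stat3 at 28.9 ± 0.926 FPKM. Stat4 followed at 21.6 ± 0.728 FPKM, above Stat5b at 19.7 ± 0.219 and Stat5a at 18.7 ± 0.41 FPKM. No neighbours in that order overlapped. The percentile of Stat2 was 85.1 and 85.8 there, and that of Stat4 went from 72.9 and 74.3 to 81.0 and 80.1.

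**Figure D1:**
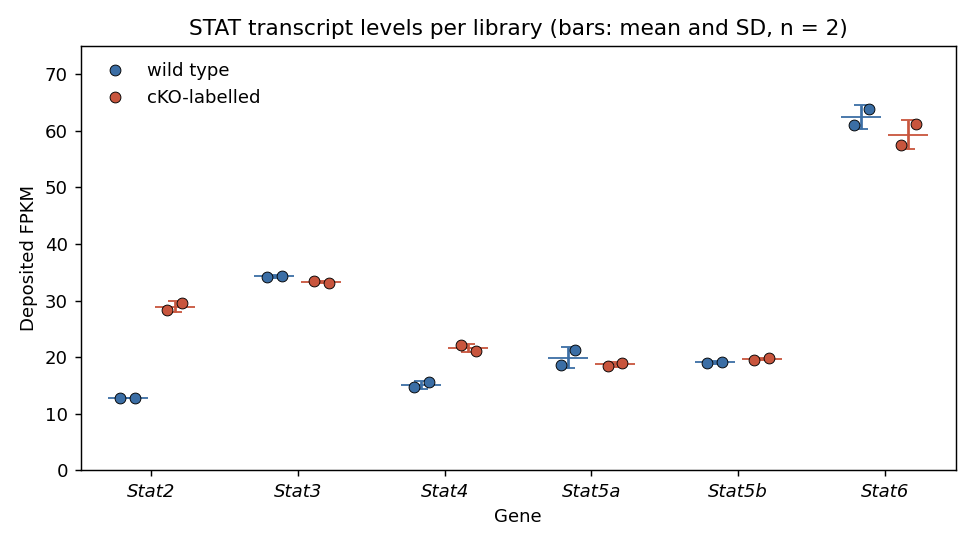
Deposited FPKM (vertical axis, from 0) of the 6 STAT genes in each library. Points are libraries, blue for wild type and red for cKO-labelled, with bars for the mean and SD (n = 2). The red points of Stat2 (28.26 and 29.57) and Stat4 (22.08 and 21.05) lie above the blue ones, and those of the other 4 genes lie near them.

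Comparing genotypes asks how the expression of each STAT gene differed where Adar1 is labelled as deleted. The test was edgeR's quasi-likelihood test, with p-values adjusted over all genes by the Benjamini-Hochberg method. At an adjusted p under 0.05 it called 21.7% of 14180 tested genes, 12.2% as higher and 9.54% as lower. Higher genes were 56.07% of the calls, or 43.14% once a trend with GC content was removed from each library. The median change over tested genes was -0.0671 with that trend removed, against -0.0058, so the 2 fits were not centred alike. All 6 STAT genes passed the filter on low counts. Stat2 and Stat4 were called higher, and Stat3, Stat5a, Stat5b and Stat6 were not called. None was lower by edgeR or DESeq2, nor at an unadjusted p under 0.05. With 6 genes, 2 calls are close to the share over all genes, so the count says nothing particular about the family. Each change below is the log2 value of cKO-labelled libraries minus that of wild type, ± SE, and its 95% interval comes from the same test. Where values are set against each other, wild-type libraries 1 and 2 stand first and cKO-labelled libraries 1 and 2 after them.

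Stat2 (ENSMUSG00000040033, chromosome 10, 128270559 to 128292849, plus strand, GRCm38) more than doubled. The wild-type libraries held 1306 and 1479 counts and the cKO-labelled ones 3013 and 3058, or 75.8 and 75.2 CPM against 167.3 and 175.2 CPM. The genotypes were far apart and the libraries of each close together. The change was 1.18 ± 0.061 (interval 1.05 to 1.31), which is 2.27-fold, with an adjusted p of 5.25e-13. It lay at percentile 95.85 of the changes of all tested genes. STAT2 is the subunit that gives the interferon complex much of its power to activate transcription.

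Stat4 (ENSMUSG00000062939, chromosome 1, 51987148 to 52107189, plus strand), best known in T and NK cells as the mediator of IL-12 signals, rose to a smaller degree. The wild-type libraries held 982 and 1187 counts and the cKO-labelled ones 1538 and 1422, or 56.99 and 60.4 CPM against 85.4 and 81.5 CPM. The genotypes did not overlap, as for 57.9% of all tested genes. The change was 0.51 ± 0.067 (interval 0.37 to 0.65), which is 1.42-fold, with an adjusted p of 4.28e-06. It lay at percentile 89.41 of all changes.

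Because Stat4 is a gene of T, NK and dendritic cells too, the markers of those cells are given beside it. The 9 T-cell markers summed to 6.38 and 6 CPM against 5.5 and 9.11 CPM. Of these, 3 were tested and 0 called, by edgeR, DESeq2 or an unadjusted p under 0.05. Cd3e, a defining chain of the T-cell receptor complex, had 0 and 1 counts against 3 and 3. The members did not move in 1 direction: Trac had 30 and 22 counts against 15 and 19, and Cd3g 23 and 10 against 16 and 20. The 7 NK-cell markers summed to 1.45 and 1.68 against 5.44 and 5.16 CPM, with 1 of 2 tested members, Prf1, higher, and Eomes and Klra8 at 0 in wild type. The 7 dendritic-cell markers summed to 60.1 and 59.1 against 114 and 120 CPM, with 4 of 5 tested members higher. The 4 were Zbtb46, Flt3, Itgax (7 and 10 counts against 36 and 51) and Batf3 (30 and 40 counts against 113 and 115). By its wild-type libraries alone Itgax would not have passed the filter on low counts. The shares over all tested genes were 12.2% higher and 9.54% lower. Xcr1 was not called, and Siglech and Clec9a were too low to be tested, with 1 or 2 counts of Clec9a in every library. Macrophage and monocyte markers summed to 128 and 123 against 46.1 and 55 CPM, mostly Adgre1, and neutrophil markers to 1.16 and 0.814 against 2.28 and 3.32 CPM. The part of such cells in the rise of Stat4 was not tested.

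Stat3 (ENSMUSG00000004040, chromosome 11, 100885098 to 100939540, minus strand), the factor of IL-6, IL-10 and IL-21, had the tightest values. It stood at 326.8 and 327.9 CPM in wild type, against 318.2 and 316 CPM. Both cKO-labelled libraries were slightly lower, but the change of -0.05 ± 0.056 (interval -0.16 to 0.07) was not called, with an adjusted p of 0.649. Stat6 (ENSMUSG00000002147, chromosome 10, 127642986 to 127660957, plus strand), the factor of IL-4, stood at 269.8 and 281.3 CPM against 252.8 and 269.3 CPM. The highest cKO-labelled library lay just under the lowest wild-type one. Its change was -0.08 ± 0.059 (interval -0.20 to 0.04), with an adjusted p of 0.4.

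Stat5a (ENSMUSG00000004043, chromosome 11, 100859351 to 100885169, plus strand) and Stat5b (ENSMUSG00000020919, chromosome 11, 100780731 to 100850724, minus strand) encode closely related factors of IL-2 and IL-7 signals. Stat5a stood at 133.0 and 151.1 CPM in wild type, against 131.4 and 135.7 CPM. Its wild-type libraries were the least alike of any member, and the genotypes overlapped. Its change was -0.09 ± 0.065 (interval -0.22 to 0.05), with an adjusted p of 0.375. Stat5b stood at 105.4 and 106.3 CPM against 108.2 and 110 CPM. Its change was 0.04 ± 0.060 (interval -0.08 to 0.17), with an adjusted p of 0.692. The ratio of Stat5a to Stat5b in FPKM was 0.980 and 1.10 in wild type, against 0.943 and 0.958, so neither gene led in every library.

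The intervals of the 4 uncalled genes all held 0 and reached no further than -0.22 on one side and 0.17 on the other. They thus leave out a change as large as that of Stat4 in either direction. A missed threshold does not show that these levels were equal.

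**Figure D2:**
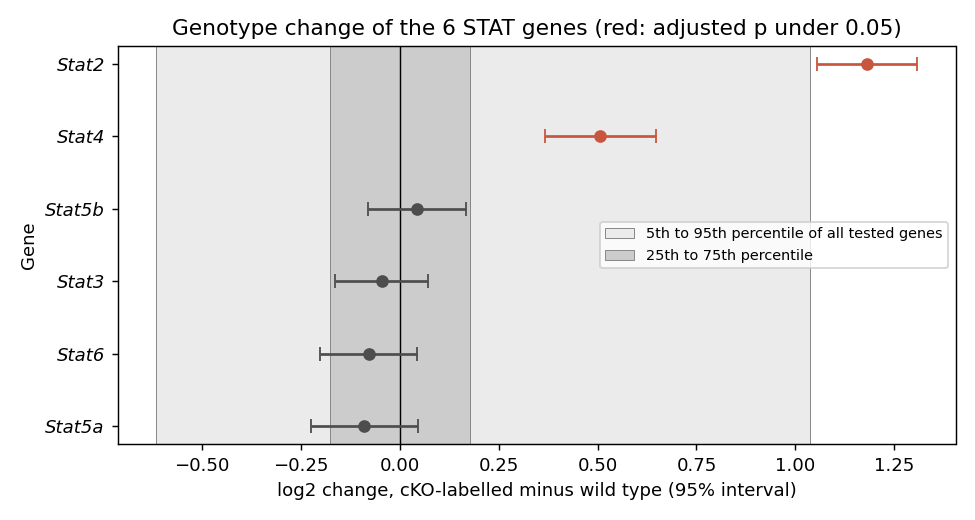
Log2 change (horizontal axis, cKO-labelled minus wild type) of each STAT gene with its 95% interval, over the range of all tested genes in grey. Stat2 at 1.18 lies beyond the 95th percentile of all genes (1.04), Stat4 at 0.51 lies between the 75th (0.18) and the 95th, and the other 4 lie between the 25th (-0.17) and the 75th.

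Read as shares of the summed FPKM of these 6 genes, Stat2 went from 7.96% and 7.60% in wild type to 15.8% and 16.1% in cKO-labelled libraries. Stat4 went from 9.16% and 9.34% to 12.3% and 11.45%. Stat6 went from 38.1% and 38.3% to 32.1% and 33.3%, and Stat3 from 21.3% and 20.6% to 18.6% and 18.0%. The summed FPKM of Stat3, Stat5a, Stat5b and Stat6 was 132.5 and 138.6 in wild type, against 128.9 and 133.2, so the shares of Stat6 and Stat3 were lower while this sum overlapped between genotypes. For each FPKM of Stat3 there were 0.373 and 0.369 FPKM of Stat2 in wild type, against 0.845 and 0.891. With 2 libraries a genotype an exact permutation test of such a ratio cannot go below p = 0.333, so none was run.

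**Figure D3:**
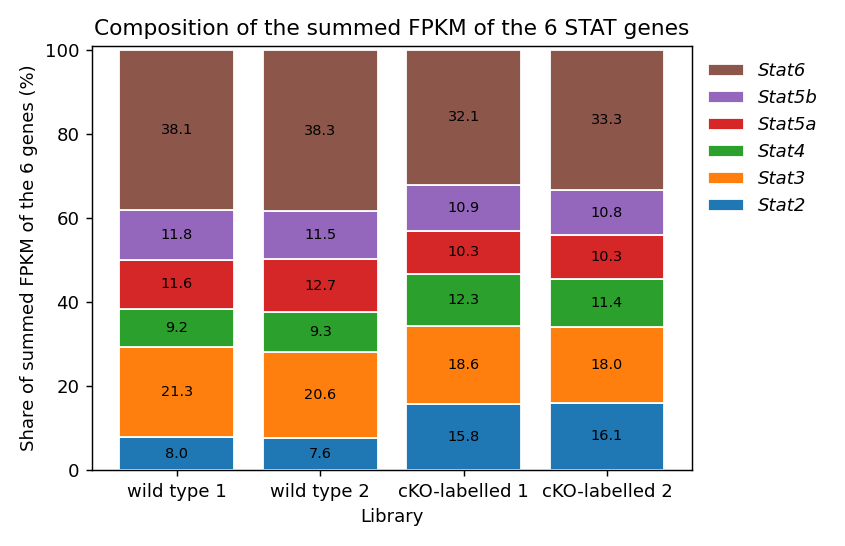
Share (vertical axis, percent) of each STAT gene in the summed FPKM of the 6 genes, one stacked bar for each library. The Stat2 segment is 7.6% to 8.0% of the bar in wild type and 15.8% to 16.1% in cKO-labelled libraries, and the Stat6 segment is the largest in all 4.

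Gene-level counts have limits that touch some members. Stat5a and Stat5b transcripts share sequence: of the distinct runs of 100 bases in annotated Stat5a transcripts 3.44% also occur in Stat5b, and 4.79% of those of Stat5b occur in Stat5a. How reads from such stretches were assigned was not stated by the labels, so the split between this pair is slightly uncertain. No other pair of the 6 shared a run of 100 bases. Stat4 overlaps Gm28177, a processed transcript on the same strand, over 29929 bases, and Gm3940, a processed pseudogene on the other strand, over 432 bases. Gm28177 had 2 and 3 counts against 8 and 7, and Gm3940 5 and 4 against 1 and 3. The 3′ ends of Stat3 and Stat5a overlap by 72 bases on opposite strands, and Stat6 overlaps Nab2 by 40 bases. Nab2 had 1017 and 1196 counts against 831 and 907. The library kit does not mark strand. Splice forms, such as the long and short forms of STAT3, are not separated by these counts.

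The nearest tested genes that do not overlap a member are given next. Whether their changes are linked to those of the members was not tested. Il23a (chromosome 10, 128296139 to 128298752, minus strand), which encodes the specific subunit of IL-23, lies 3290 bases beyond the 3′ end of Stat2. It held 4 and 12 counts in wild type against 84 and 121, a change of 3.73 ± 0.41 with an adjusted p of 2.73e-07. On the other side, 406 bases before Stat2, Apof had 55 and 57 counts against 63 and 16, and was not called (adjusted p 0.496). Without cKO-labelled library 1 it was called lower, at -1.72, and without cKO-labelled library 2 the value was 0.20. Next to Stat4 the lincRNA Gm31812 had 4 and 13 counts against 28 and 21 and an adjusted p of 0.0448. That call was lost without wild-type library 1 (adjusted p 0.386), without cKO-labelled library 1 (0.260), without cKO-labelled library 2 (0.0896), with the GC trend removed (0.0756) and by DESeq2 (0.175). Without wild-type library 2 the change was 2.53 in place of 1.58. By its wild-type libraries alone this lincRNA would not have passed the filter on low counts. Around Stat3, Stat5a and Stat5b, which lie in 1 cluster, neither Atp6v0a1 (-0.08 ± 0.066) nor Ghdc (-0.04 ± 0.13) was called. Beside Stat6, Nemp1 was called higher at 0.31 ± 0.074 (without wild-type library 1 the value was 0.24, with an adjusted p of 0.0851), and Lrp1 was not called.

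Some genes had nearly the same pattern over the 4 libraries as a member. Likeness was the distance between log2 CPM values centred on each gene's mean, over 4 libraries and about 9330 protein-coding genes of at least 5 CPM. Closest to Stat2 were Trim30d (distance 0.0497), at 54.7 and 55.2 CPM in wild type, against 125.4 and 132.2 CPM, and Epsti1 (0.0596), with a change of 1.21 ± 0.071. Closest to Stat4 were Ugcg (0.0081), at 63.1 and 66.5 against 94.7 and 90.1 CPM, and Rrm2 (0.0379). The other members barely varied, and many genes lie close to such a pattern. Closest were Ufm1 and Ctr9 to Stat3, Per1 and Gtpbp10 to Stat5a, Ppp1r9b and Pole to Stat5b, and Gba2 and Gmip to Stat6, at distances from 0.00579 to 0.0173.

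The genes around the STAT factors were read in 16 lists of ligands, receptor chains, kinases, inhibitors and targets, with 122 genes in all. Of 105 tested, 45 were higher and 13 lower, with a median change of 0.175 against -0.0058 over all tested genes. Some of these passed the filter on low counts only with the cKO-labelled libraries, where they were higher. Without the filter 46 were higher and 13 lower. By DESeq2 34 were higher and 11 lower, and with the GC trend removed 39 were higher and 13 lower. The lists were chosen with earlier results of these data known. Over all tested genes 12.2% were higher and 9.54% lower, and the counts of each list below stand beside those same shares.

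Ligands came first in the path. Of 22 cytokine genes 12 were tested and 7 were higher, with a median of 1.10. None was lower by edgeR, DESeq2 or an unadjusted p under 0.05. Of those higher, Il23a and Ifng would not have passed the filter on low counts by their wild-type libraries alone. Il4 (3 and 12 counts against 0 and 2) was too low to be tested. Without the filter 8 were higher and 0 lower. Il15, a cytokine that signals through STAT5, stood at 4.18 and 2.54 CPM in wild type, against 18.1 and 17.9 CPM. Il12b, the subunit that IL-12 and IL-23 share, had 29 and 21 counts against 184 and 211, a change of 3.03 ± 0.26. Il10, which signals through STAT3, rose from 8.36 and 8.29 to 24.2 and 22.5 CPM. The interferon genes Ifnb1 (0 and 1 counts against 1 and 10) and Ifna4 (0 and 0 against 20 and 4) were too low to be tested. These cKO-labelled libraries also had the higher dendritic-cell marker sums given above, whose part in the ligand changes was not tested.

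Receptor chains were counted by the STAT they feed, and the lists share members such as Il10rb and Il2rg. Of 4 chains upstream of STAT2, the type I interferon receptor genes Ifnar1 (0.02 ± 0.070) and Ifnar2 (-0.05 ± 0.092) were not called. Ifnlr1, the type III interferon receptor chain, rose from 27 and 43 counts to 78 and 86, a change of 1.29 ± 0.30. Il10rb, which also serves IL-10, was called lower at -0.30 ± 0.11. That call was lost without wild-type library 1 (-0.22) and without cKO-labelled library 1 (-0.21), and by DESeq2 (adjusted p 0.185).

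Of 7 tested chains listed upstream of STAT3, 3 were lower, with a median of -0.21. In that list 0 were higher by edgeR, DESeq2 or an unadjusted p under 0.05. Besides Il10rb the lower chains were Il27ra, for IL-27, which fell from 44.6 and 42.3 to 26.4 and 30.9 CPM, and Il10ra, for IL-10, at -0.38 ± 0.076. The lists do not place a chain under every STAT it can feed. Il12rb1, Il23r and Il9r, all called higher below, stand outside the STAT3 list. Upstream of STAT4, Il12rb1, the chain shared by the IL-12 and IL-23 receptors, rose from 8.18 and 6.51 to 17.8 and 15.3 CPM, a change of 1.18 ± 0.16. Il23r had 0 and 2 counts against 11 and 14 and was called higher (adjusted p 0.00906, or 0.174 without wild-type library 1 and 0.0702 by DESeq2). Il12rb2, with 1 and 3 counts against 14 and 9, was too low to be tested. By its wild-type libraries alone Il23r would not have passed the filter on low counts.

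Of 12 tested chains upstream of STAT5, 4 were higher and 1 lower, with a median of 0.065. Il9r, the IL-9 receptor, rose from 123.1 and 120.9 to 417.4 and 453.1 CPM, a change of 1.83 ± 0.062. Il2rb, of the IL-2 and IL-15 receptors, rose by 0.96 ± 0.13 and Csf2rb, the common beta chain, by 0.55 ± 0.068. Il5ra was called higher at 0.25 ± 0.078, a call lost without wild-type library 1 (0.17), without cKO-labelled library 2 (0.16), with the GC trend removed (0.11) and by DESeq2 (adjusted p 0.129). Il7r was called lower at -0.54 ± 0.19, a call lost without wild-type library 1 (-0.40), cKO-labelled library 1 (-0.61) or cKO-labelled library 2 (-0.48), and by DESeq2 (adjusted p 0.167). Of 3 chains upstream of STAT6, Il4ra, the IL-4 receptor, fell from 143.9 and 131.3 to 80.6 and 92.4 CPM, a change of -0.67 ± 0.070. Il13ra1 had 15 and 19 counts against 43 and 41 and was called higher with all 4 libraries, while without any 1 of them the adjusted p was between 0.0603 and 0.0976, and by DESeq2 it was 0.0785. Il2rg, the common gamma chain, was not called (0.07 ± 0.058).

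Among the 4 JAK kinases 1 rose, 1 fell and 2 were not called. Jak2 rose from 106.7 and 115.2 CPM to 169.5 and 176.1 CPM, a change of 0.64 ± 0.062 with an adjusted p of 3.17e-08. Jak3, the kinase of the common gamma chain, fell from 238.5 and 242.5 to 178.4 and 185.5 CPM, a change of -0.40 ± 0.058 with an adjusted p of 1.45e-05. Jak1 (-0.07 ± 0.058) and Tyk2 (0.00 ± 0.061), both of which serve the type I interferon receptor, were not called. Of 6 partners and cofactors 2 were higher, and 0 lower by edgeR, DESeq2 or an unadjusted p under 0.05. Irf9, the DNA-binding partner of STAT2, rose from 95.1 and 95 to 140.8 and 147.1 CPM, a change of 0.60 ± 0.060, and Nmi, a STAT-interacting protein, by 1.01 ± 0.087.

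Inhibitors moved in both directions. Of 8 genes of the SOCS family, feedback inhibitors that cytokines induce, 3 were higher and 1 lower, with a median of 0.11. Socs2 rose from 7.37 and 9.56 to 26.1 and 25.9 CPM, and Socs1 by 1.17 ± 0.13. Cish was called higher at 0.44 ± 0.15, a call lost without wild-type library 1 (0.37), without cKO-labelled library 1 (0.33) and by DESeq2 (adjusted p 0.131). Socs3, the inhibitor that STAT3 is known to induce, fell from 17.2 and 18.5 to 10.3 and 10.7 CPM, a change of -0.77 ± 0.14. None of the 4 PIAS genes was called by edgeR or DESeq2, and 1, Pias2, had an unadjusted p under 0.05. Their changes ran from -0.08 for Pias4 to 0.20 for Pias2. Of 6 phosphatases Ptpn6 (SHP-1) at -0.24 ± 0.052 and Ptpn1 at -0.22 ± 0.057 were lower. Ptpn2 was called higher at 0.26 ± 0.072, a call lost without wild-type library 2 (0.21), without cKO-labelled library 1 (0.21), with the GC trend removed (0.13) and by DESeq2 (adjusted p 0.0716).

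Known targets of each factor were counted next. All 12 listed targets of STAT2 with IRF9 were higher, with a median of 2.29. Usp18, an inhibitor of interferon receptor signalling, rose by 3.13 ± 0.079, the antiviral gene Mx1 from 9.69 and 9.05 to 88.4 and 77.5 CPM, and Irf7 by 2.45 ± 0.080. Of 12 STAT3 targets 4 were higher (Prdm1, Birc5, Hif1a and Pim1) and 4 lower (Vegfa, Socs3, Bcl3 and Myc), with a median of 0.10. Prdm1, the plasma cell regulator, rose by 1.10 ± 0.12, and Vegfa fell from 67.7 and 65.6 to 44.5 and 36.8 CPM. Without wild-type library 1, 2 of these targets were higher. The call of Hif1a was lost without wild-type library 1 (adjusted p 0.366), without cKO-labelled library 2 (0.0602), with the GC trend removed (0.425) and by DESeq2 (0.0976). That of Pim1 was lost without wild-type library 1 (0.263), wild-type library 2 (0.0679) or cKO-labelled library 1 (0.179) and by DESeq2 (0.0533). That of Myc was lost without wild-type library 1 (0.128) and without cKO-labelled library 2 (0.141).

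Of 6 tested STAT4 targets 4 were higher (Tbx21, Ifng, Il18rap and Hlx) and 1 lower (Furin). Tbx21, which encodes T-bet, rose from 11.4 and 8.85 to 21.7 and 15.6 CPM, and Furin, a protease gene, fell by 0.40 on the log2 scale. Ifng, Il18rap and Hlx had at most 32 counts in any library. By their wild-type libraries alone they would not have passed the filter on low counts. Without wild-type library 2, cKO-labelled library 1 or cKO-labelled library 2, 1 target was called higher, and likewise by DESeq2. Ifng and Tbx21 are genes of NK and T cells as well, whose marker sums are given above.

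Of 12 STAT5 targets 5 were higher (Socs2, Socs1, Bcl2, Cish and Pim1) and 1, Socs3, lower, with a median of 0.12. Without wild-type library 1, and again without cKO-labelled library 1, 3 were higher. Of 10 tested STAT6 targets 6 were higher (Ccl22, Ighg1, Socs1, Ighe, Xbp1 and Cish) and 1, Il4ra, lower, and the median was 0.32. By DESeq2 3 were higher. Ighe had 5 and 2 counts against 18 and 16, and its wild-type libraries alone would not have passed the filter on low counts. Xbp1 changed by 0.20 ± 0.062, with an adjusted p of 0.0244 by edgeR. Ccl22, an IL-4-induced chemokine, rose from 1343 and 1422 CPM to 2888 and 2901 CPM. Ighg1, the constant region of IgG1, rose by 0.83 ± 0.079. The target lists share members: Socs1 and Cish stand under both STAT5 and STAT6, and Socs3 and Pim1 under both STAT3 and STAT5.

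**Figure D4:**
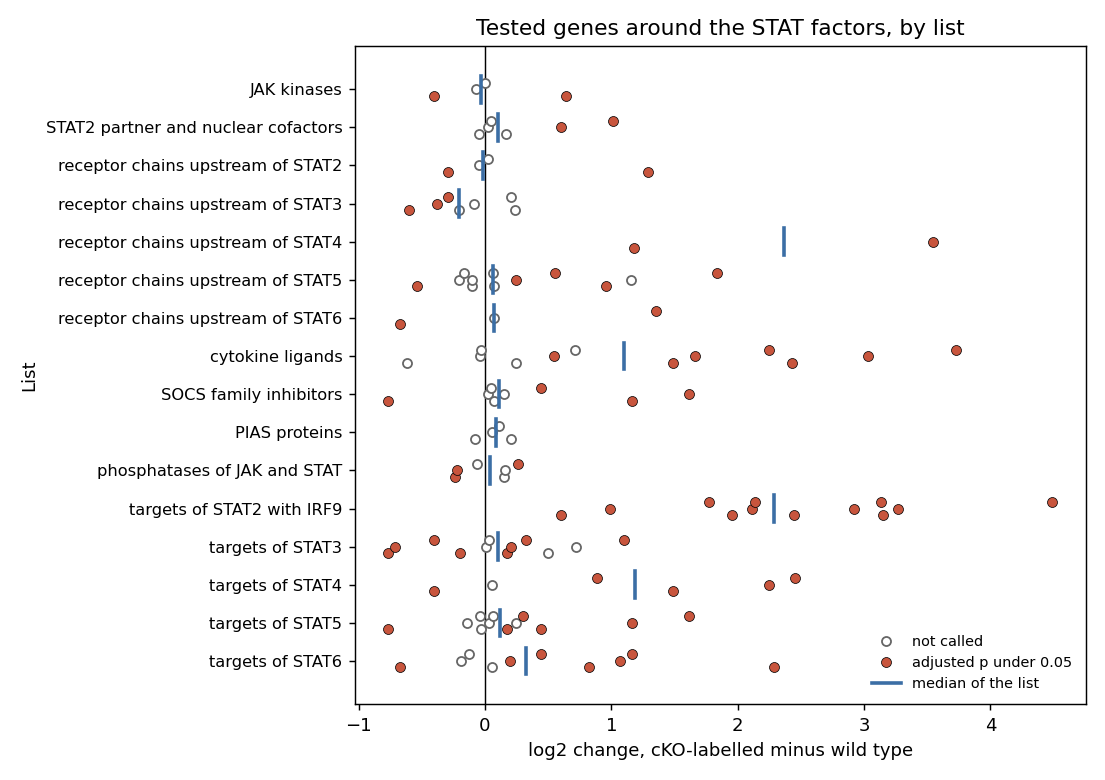
Log2 change (horizontal axis, cKO-labelled minus wild type) of every tested gene in 16 lists around the STAT factors (vertical axis). Filled points passed the adjusted p threshold and blue bars are list medians. All 12 targets of STAT2 with IRF9 lie right of 0, while targets of STAT3 and STAT5 lie on both sides.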

How the data were processed

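The submitters' processing notes name HTSeq 0.6.1, HISAT2 2.0.1, bcl2fastq 2.17.1.14, cutadapt 1.9.1 and the build GRCm38. Settings, including that of strand, are not stated there. The deposited table gives raw read counts per gene and, beside them, FPKM values made by the authors. All 221604 FPKM values were within rounding of those recomputed from count, exonic length and library total, and were used only to compare levels between genes. Counts of 4 libraries (2 per genotype) were tested in R 4.3.3 with edgeR 4.0.16. Low genes were removed by filterByExpr (at least 10 counts, and 15 in total), and TMM preceded the quasi-likelihood test of genotype over all genes, with Benjamini-Hochberg adjusted p under 0.05 called. The test was also tested on simulated data. The SE is the size of the change over the square root of edgeR's F. CPM use TMM-scaled library sizes. A count of 0 allows a level of up to 3 counts, 0.153 to 0.173 CPM by library (counting error only). Libraries of a genotype differed beyond sampling noise, at a chi-square of 9.23 (wild type) and 4.66 per gene.

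Gene types and transcripts came from GENCODE M21 (99.53% of rows matched by identifier), promoters from RefSeq. Alternatives were no filter, RLE size factors, DESeq2 1.42.0, removal of each library's GC trend, no ribosomal RNA rows, each library left out, and a replicate block. Members and lists were chosen with earlier results of these data known. Named genes were the members, their 2 most alike genes, their neighbours, and the 3 called genes of smallest adjusted p in each list (all of a list under 6). Others named to complete a count, and genes with promoter windows, were chosen after their values were seen. A gene that this rule names is not reported here.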

Additional observations from a re-analysis of the deposited data

How the results depend on the processing

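Stat2 and Stat4 were called higher and the other 4 STAT genes not called under all 10 alternatives, with no change of direction. Leaving out each library in turn, the changes ranged from 1.15 to 1.21 for Stat2, 0.46 to 0.54 for Stat4, -0.05 to -0.04 for Stat3, -0.18 to -0.0004 for Stat5a, 0.03 to 0.05 for Stat5b and -0.12 to -0.03 for Stat6. The value of Stat5a near 0 was the one without wild-type library 2. With each library's GC trend removed Stat4, whose transcripts are poor in GC (43.86%, percentile 17.4 of tested genes), changed by 0.37, with an adjusted p of 0.000451. That fit called 1305 genes higher and 1720 lower, against 1727 and 1353, so that higher genes went from 56.07% to 43.14% of calls. Its median change was -0.0671, against -0.0058, and all its values carry this shift. DESeq2 called 795 genes lower (1235 higher). Calls over all genes ranged from 1293 to 1469 higher and from 984 to 1252 lower without 1 library, and pathway genes from 37 to 38 higher and from 11 to 13 lower. With the replicate number as a block, 1904 were higher and 1594 lower. The labels do not say that a number marks a shared batch. The deviations of same-numbered libraries had a correlation of 0.017, which cannot tell whether they shared a batch, with 2 libraries a genotype. On TMM-scaled library sizes Stat2 stood at 12.74 FPKM in wild type.

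Among 82 other named genes, 12 values, all of uncalled genes, turned sign, and the cause was not tested. With the GC trend removed these were Ifnar1 (-0.0618), Pole (-0.0365), Il2rg (-0.015) and Pias1 (-0.0205), and without the filter Tyk2 (-0.0052). Leaving out 1 library, the values ran from -0.0563 to 0.0474 for Tyk2, -0.0686 to 0.0998 for Ifnar1, -0.058 to 0.1593 for Pias3, -0.1168 to 0.0327 for Ghdc and -1.724 to 0.2022 for Apof. By DESeq2 fewer listed targets were higher: 2 of STAT3, 1 of STAT4, 3 of STAT5 and 3 of STAT6. By DESeq2 also 1 receptor chain upstream of STAT4 and 0 upstream of STAT6 were higher, and 0 upstream of STAT2 or STAT5 lower. Of the phosphatases 0 were higher with the GC trend removed, 2 without ribosomal RNA rows and 3 with the replicate block, against 1.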
